A study of Mus musculus with 6 samples.

Results

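The core genes of autophagy and mitophagy, 40 chosen by name for their place in this machinery, were compared between wild type and Cd36 null brown adipose tissue, the depot that burns fat for heat. Of them 34 were tested, among 10150 tested genes. Autophagy is the route by which a cell encloses part of its own contents in a double-membraned vesicle and delivers it to the lysosome. A kinase complex and a lipid kinase complex start the vesicle, membrane and lipid carriers enlarge it, and a conjugation system fixes proteins of the LC3 and GABARAP family to its membrane, where cargo receptors bind them. In brown fat, whose cells are dense with mitochondria, autophagy is known to remove mitochondria, a process called mitophagy, and to deliver lipid for breakdown, and fasting is a classical inducer. The product of Cd36 sits in the cell membrane and helps long-chain fatty acids enter.

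All animals were males of 3 months with a C57BL6J background, deprived of food overnight, so that both genotypes were fasted and fed animals were not compared. Each genotype was measured on 3 single-colour Illumina bead arrays. How the null allele was made is not given in the labels, and they leave unsaid whether each array had its own animal. The p-values then rest on a spread that may be technical in part. A wild type array detected 16929 to 17035 probes and a null array 18139 to 19199, where detected means a detection p under 0.05. Over tested probes, arrays of the same genotype correlated at 0.974 to 0.992 and arrays of different genotypes at 0.962 to 0.973. The only probe named Cd36 was detected on 1 wild type array and on 0 null arrays, so it could not check the genotype. Of 12 brown adipocyte markers, 11 had a probe and all 11 were detected on every array. Their summed level was 129134 to 143643 in wild type and 124800 to 138231 in null tissue. Ucp1, Cidea, Cox8b and Cox7a1 made up most of it, so the sum says little of the other markers. In null tissue 1 marker was higher, Elovl3 (2.35 log2), and 2 were lower, Pparg (-0.63) and Prdm16 (-0.59).

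Markers of other cell types were also measured, and some were spread unevenly over the arrays. The summed linear level of 15 macrophage markers was 4469 to 5353 on the wild type arrays and 12480 to 13668 on the null arrays. Of these, 9 of 12 tested markers rose. Itgam and Ptprc were never detected, and Cd68 had no probe. Fcgr1 was detected in wild type tissue only, on too few arrays to be tested. For 12 hepatocyte markers the sum was 10831 to 13692 in wild type, and 31000, 14776 and 15551 on null replicates 1 to 3. Of 8 tested markers 3 were higher, and Alb, Fgb, Apob and Tat were never detected. Fga and Serpina1a were detected on 0 wild type and 3 null arrays, so they were tested only through the null arrays. Their wild type values are background, from which their deviations below are counted. Hp, which did not pass (0.18 log2), was the brightest and made up most of the sum except on null replicate 1. The median deviation of the 8 tested markers from their wild type means was 3.63, 0.76 and 1.23 log2 on null replicates 1 to 3. On the wild type arrays it was -0.30, -0.09 and 0.36. For 11 skeletal muscle markers the sum was 116015 to 120590 in wild type, and 161602, 117348 and 40521 on null replicates 1 to 3. Of 11 tested muscle markers, 0 were past the threshold in limma and 0 had an unadjusted p under 0.05. Fibroblast markers summed to 5862 to 6550 in wild type and 8724 to 12541 in null tissue, with 5 of 6 higher. Dcn, which did not pass (0.51 log2), was the brightest fibroblast marker and made up most of that sum. The 6 lymphocyte markers summed to 387 to 409 in wild type and 469 to 576 in null tissue, with 1 of 5 tested higher. Cd3d, Cd3g and Cd2 were detected on 0 wild type and 3 null arrays, so they were tested only through the null arrays. Ms4a1 was never detected, and the wild type lymphocyte sum lay near background. The part of these cell types in the values below was not tested, and in whole tissue fewer cells of a type and less RNA per cell cannot be told apart.

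Of the 40 genes, 37 had at least 1 probe by the platform's gene symbol, 77 probes in all, and 34 genes had a tested probe, 53 probes in all, of 10150 genes tested. Tested means detected on at least 3 of the 6 arrays. Atg14, Optn and Pink1 matched no probe here and were not analysed. Rb1cc1, Atg4a and Bnip3 had probes that were not detected on any array, so their transcripts were not measured. Each gene is represented by its brightest tested probe, and a difference is the null mean less the wild type mean in the authors' log2 table, where an offset makes the differences of dim probes smaller.

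Most genes of the autophagy machinery did not differ past the threshold, and 3 changed. Atg9b fell, and Gabarapl1 and Sqstm1 rose (adjusted p under 0.05 in limma). Thus 2 of 34 tested members were higher, where 6.36% of all tested genes were, and 1 was lower, where 2.91% of all tested genes were. Those shares of members, 5.88% and 2.94%, were close to the shares of all genes in either direction, so the counts are no result about autophagy genes as a group. An unadjusted p under 0.05 was reached by 20.6% of members and 23.7% of all genes. The genotypes did not overlap for 12 of 34 members, against 29.4% of all tested genes. All null arrays lay above for 4 members (11.8%, against 15.6% of all tested genes) and below for 8 (23.5%, against 13.8%). The median difference of the members was 6.74e-04 log2, against -0.0248 over all genes. Differences were under 0.25 log2 in size for 20 members, between 0.25 and 0.5 for 11, and above 0.5 only for the 3 that passed. No member passed in the direction of Atg9b besides Atg9b itself.

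**Figure D1:**
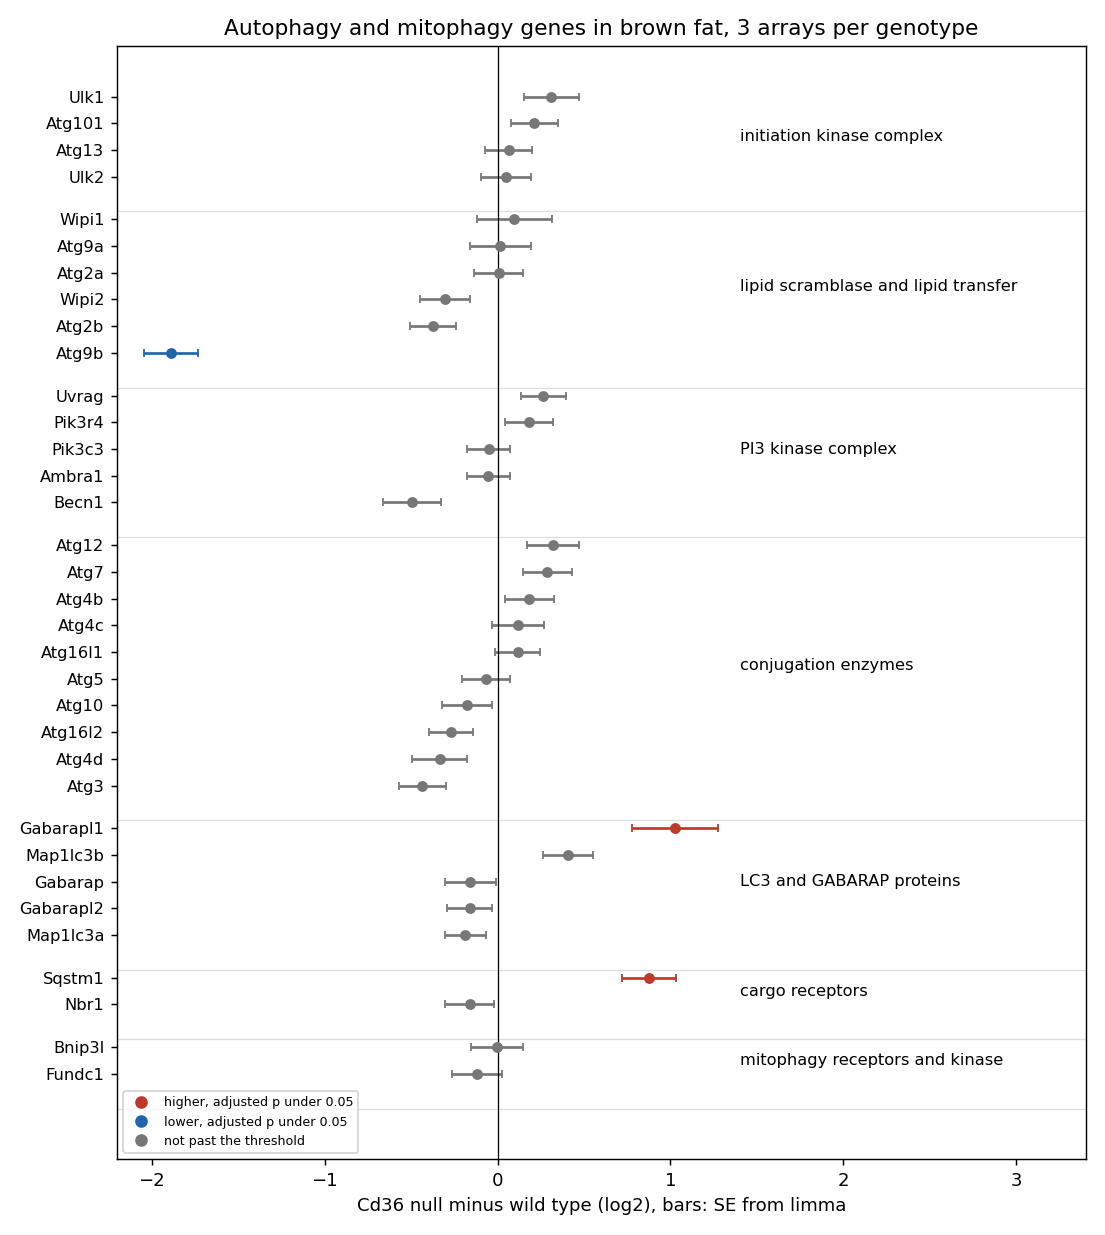
Difference between Cd36 null and wild type (horizontal axis, log2) of the 34 tested autophagy and mitophagy genes, grouped by role, with bars for the SE from limma and 3 arrays per genotype. Atg9b stands at -1.89, Gabarapl1 at 1.03 and Sqstm1 at 0.87, and the other genes lie between -0.50 and 0.41.

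**Figure D2:**
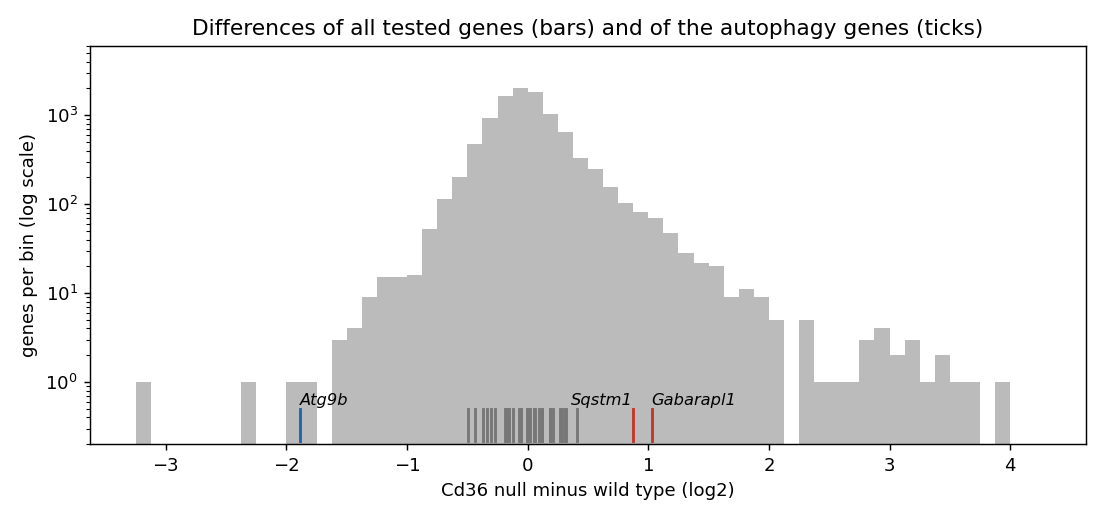
Number of genes (vertical axis, log scale) by difference between Cd36 null and wild type (horizontal axis, log2) for the 10150 tested genes as bars, with the 34 autophagy genes as ticks coloured by call. The grey ticks crowd around 0 like the bulk of all genes, and 2 of all tested genes lie to the left of Atg9b.

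The promoters of the 3 genes that passed are shown because these genes moved in opposite directions and lie on different chromosomes. Each line gives the 250 bases before the gene's start, 5′ to 3′ on the gene's strand, from RefSeq in GRCm38.p6. Atg9b is on the minus strand at chr5:24392144-24392393, Gabarapl1 on the plus strand at chr6:129532942-129533191 and Sqstm1 on the minus strand at chr11:50210821-50211070. Capitals mark a match to a searched motif.
Atg9b: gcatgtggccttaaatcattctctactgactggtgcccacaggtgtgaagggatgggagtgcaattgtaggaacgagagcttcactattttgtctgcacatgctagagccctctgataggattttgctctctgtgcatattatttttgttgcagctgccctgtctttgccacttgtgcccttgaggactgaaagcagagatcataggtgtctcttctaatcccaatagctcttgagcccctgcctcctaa
Gabarapl1: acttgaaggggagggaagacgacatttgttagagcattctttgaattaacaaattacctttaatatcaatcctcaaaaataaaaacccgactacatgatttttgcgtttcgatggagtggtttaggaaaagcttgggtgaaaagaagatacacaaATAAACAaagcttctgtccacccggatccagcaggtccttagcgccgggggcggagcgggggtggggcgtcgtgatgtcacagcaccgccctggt
Sqstm1: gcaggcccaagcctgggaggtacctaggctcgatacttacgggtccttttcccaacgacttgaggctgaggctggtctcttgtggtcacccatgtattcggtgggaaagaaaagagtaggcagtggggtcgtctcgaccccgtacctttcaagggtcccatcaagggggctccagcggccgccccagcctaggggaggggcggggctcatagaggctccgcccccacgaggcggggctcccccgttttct
Motifs of factors known to drive autophagy genes were searched on both strands of such windows, of which 36 belonged to 33 members. The E-box CACGTG, the core of the element bound by TFEB, was in 11.1% of member windows and 6.02% of all 32851 windows. Its carriers were Atg3, Atg5, Atg7 and Bnip3. Only Atg3 carried the longer TCACGTGA, which contains it (2.78% of member windows and 0.785% of all windows). The FOXO motif GTAAACA (3.17% of all windows) and the ATF4 motif TGATGNAAT (0.816%) were in 0 member windows. The variant ATAAACA, added after the sequences were seen, was in 8.33% of member windows and 4.16% of all windows. It stood in the Gabarapl1 window, where capitals mark it, and in those of Ambra1 and Atg4a. The antioxidant response motif TGACNNNGC, also added then, was in 5.56% of member windows, those of Atg13 and Ulk2, and in 10.2% of all windows. These matches are letters and not shown to be binding sites, and none of the searched motifs was in the Atg9b or Sqstm1 window.

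Among the genes that feed membrane and lipid to the growing vesicle, Atg9b fell while the other 5 did not pass. Atg9b encodes a lipid scramblase of the vesicles that seed the autophagosome, the less widely expressed relative of Atg9a. Its log2 value was 8.87, 8.99 and 8.90 on wild type replicates 1 to 3, and 6.71, 7.13 and 7.25 on null replicates 1 to 3. The null arrays all lay far below the wild type arrays, which differed little among themselves. The mean went from 8.92 ± 0.06 (SD, n = 3) to 7.03 ± 0.28 (SD, n = 3), a difference of -1.89 ± 0.15 (SE, adjusted p = 1.37e-04 in limma), or 3.7-fold. The probe was detected on all 6 arrays, and 2 of 10150 tested genes had a lower difference. Another probe of Atg9b was not detected on any array, so the fall rests on 1 probe. Atg9b remained lower past the threshold in all 14 alternative analyses, at -2.21 to -1.54.

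Atg9a, the scramblase found in most tissues, did not pass. Its values were 6.46, 6.72 and 7.16 in wild type and 6.85, 6.90 and 6.65 in null tissue, with full overlap (0.02 ± 0.18 SE, adjusted p = 0.974). The within-array difference between Atg9b and Atg9a went from 2.14 ± 0.35 (SD, n = 3) in wild type to 0.23 ± 0.37 (SD, n = 3) in null tissue. That is a shift of -1.90 ± 0.29 (SE) of Atg9b relative to Atg9a. An exact two-sided permutation test over the arrays gave p = 0.1, the smallest that 3 against 3 allows, and 0.125 after adjustment over 5 such pairs. The groups did not overlap in this measure, which reuses the Atg9b values above and is no separate support for the fall.

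None of the lipid transfer proteins and their partners passed. Atg2b, which carries lipid into the growing membrane, was 9.29, 9.40 and 9.04 in wild type and 8.89, 8.87 and 8.84 in null tissue (-0.37 ± 0.13 SE, adjusted p = 0.124). Its null values were all lower but did not pass, and its other tested probe differed by -0.17. The related Atg2a differed by 0.01, with its 2 other tested probes at -0.25 and -0.12. Wipi2, which binds the phosphoinositide on that membrane and recruits the conjugation machinery, was 9.03, 9.14 and 9.32 in wild type and 8.92, 9.02 and 8.64 in null tissue. It differed by -0.30 ± 0.14 (SE, adjusted p = 0.259), with its other probes at -0.14 and -0.07. Wipi1, its relative, differed by 0.10, and its value was highest on null replicate 1.

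**Figure D3:**
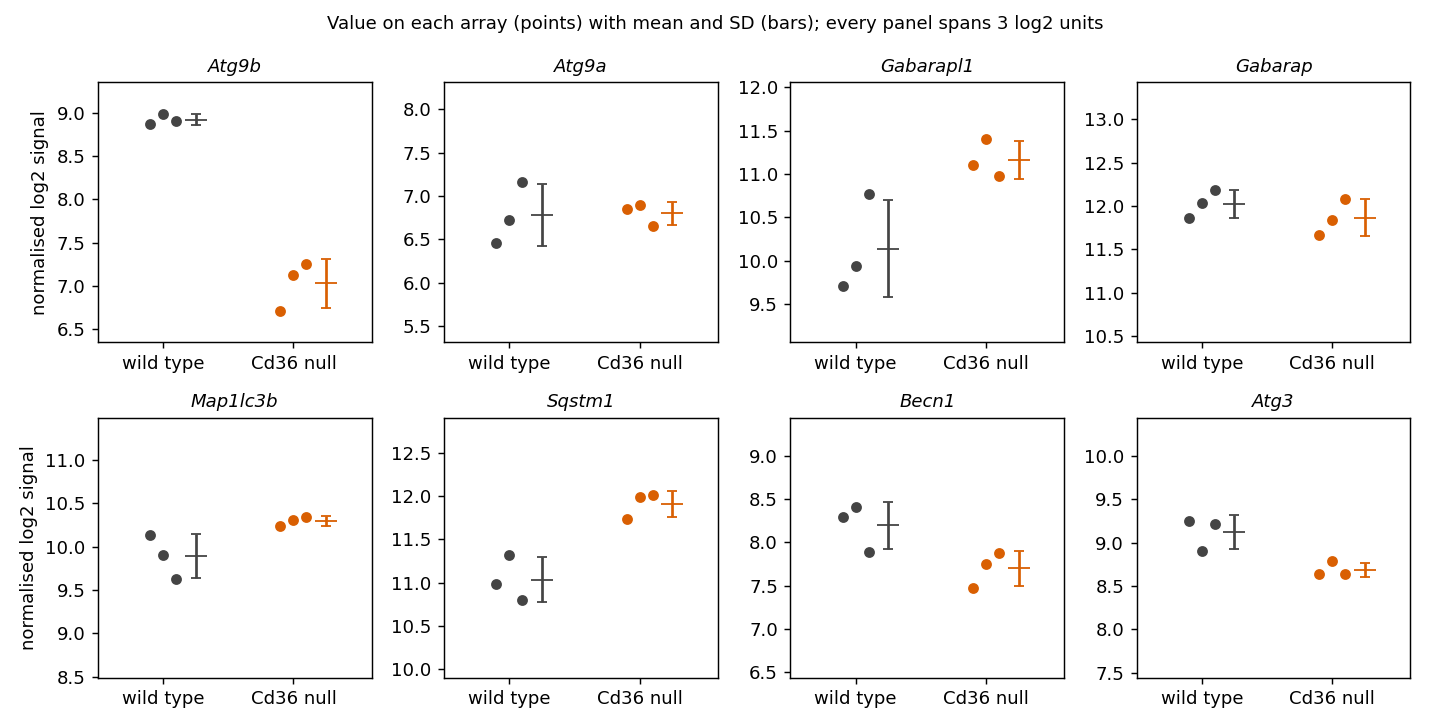
Normalised log2 signal (vertical axis) of 8 members on each array (points), with the mean and SD of each genotype (bars, n = 3). Atg9b differs by -1.89 log2, Gabarapl1 and Sqstm1 are higher on every null array, and Atg9a and Gabarap overlap.

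Atg9b overlaps Nos3, the endothelial nitric oxide synthase gene, on chromosome 5, and an older name of Atg9b is Nos3as. Nos3 also fell. Its brightest probe read 9.91, 10.29 and 9.87 in wild type and 8.83, 8.57 and 8.59 in null tissue (-1.36 ± 0.15 SE, adjusted p = 6.94e-04), and its 2 other tested probes fell by 1.37 and 1.03 on the log2 scale. The null arrays were below every wild type array for all 3 of these probes. Whether the Atg9b probe lies in the stretch shared with Nos3 cannot be read from the files, which hold no probe sequences. Of 6 tested endothelial markers other than Nos3, 0 passed in limma, and their median difference was 0.08. An unadjusted p under 0.05 in limma was reached by 3 of them (50%, against 23.7% of all tested genes). These were Emcn at -0.50, Pecam1 at 0.40 and Vwf at 0.52. The summed level of all 7 endothelial markers, with Kdr never detected, was 3090 to 3713 in wild type and 3292 to 3731 in null tissue.

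Apart from Nos3, none of the tested genes among the 3 nearest on each side passed. Of the 3 nearest protein-coding genes on the Nos3 side, Nos3 is the nearest, Kcnh2 was not tested and Nupl2 differed by -0.30 (adjusted p = 0.236). On the other side, Abcb8 differed by 0.01, with its other tested probes between -0.57 and 0.20 and Cdk5 by -0.52 (adjusted p = 0.077). Asic3 was detected on 3 wild type and 0 null arrays, so its level in null tissue has only a bound, and it was at least 1.18-fold brighter in wild type (adjusted p = 0.0559). The bound sets the wild type mean against, on each null array, the higher of the probe's own signal and the lowest signal among detected probes. Farther out, the sixth gene on this side, Tmub1, was lower in null tissue (-0.72 ± 0.13 SE, adjusted p = 0.00914), and Slc4a2, the fourth, differed by -0.35 with all null arrays lower (adjusted p = 0.22), both named after their values were seen. Cd36 itself lies on the same chromosome, with 35 protein-coding genes between it and Atg9b in the GRCm38.p6 gene order. Of the 22 tested genes in between, 2 were lower (9.09%), Nos3 among them, and 0 higher, with a median of 0.02 log2. Of 14 tested among the next 35 genes beyond Atg9b, 2 were lower (14.3%), Tmub1 among them, and 0 higher. Their median was -0.21 log2. On the rest of chromosome 5, 27 of 608 tested genes were lower and 39 higher, with a median of -0.05 log2. Over all genes 2.91% were lower and 6.36% higher, with a median of -0.02 log2. These intervals were chosen after the values were seen. Whether sequence linked to the Cd36 allele plays a part was not tested. The other members on chromosome 5, Ulk1 and Wipi2, lie elsewhere on it and did not pass.

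**Figure D4:**
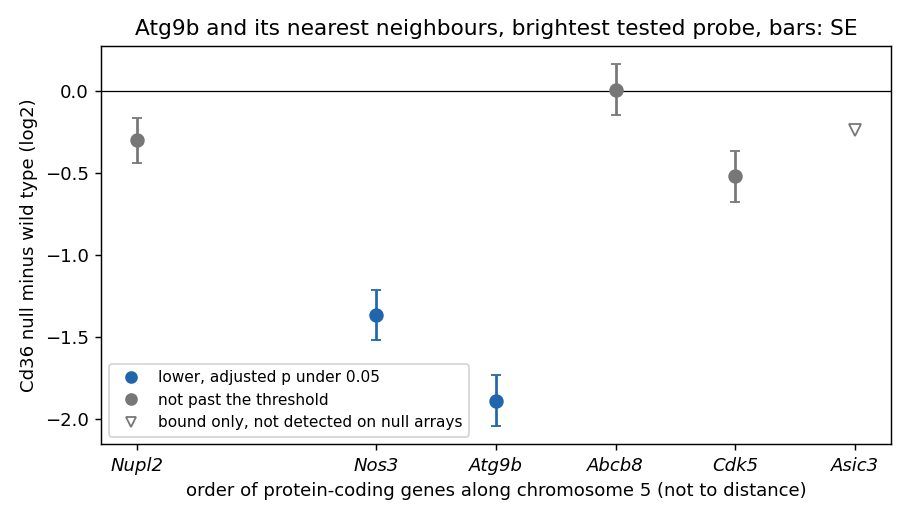
Difference between Cd36 null and wild type (vertical axis, log2, bars for the SE) of Atg9b and its nearest tested neighbours, in gene order along chromosome 5. Nos3 and Atg9b stand at -1.36 and -1.89, and Nupl2, Abcb8 and Cdk5 lie between -0.52 and 0.01, with Asic3 as an open triangle at its bound of 1.18-fold.

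In the LC3 and GABARAP family, 1 of 5 genes passed. These are small ubiquitin-like proteins that are attached to the lipid of the autophagosome membrane and hold cargo receptors there. Gabarapl1 read 9.71, 9.93 and 10.77 on wild type replicates 1 to 3 and 11.11, 11.41 and 10.98 on null replicates 1 to 3. Wild type replicate 3 lay close to the null arrays, but the groups did not overlap. Its mean rose from 10.14 ± 0.56 (SD, n = 3) to 11.16 ± 0.22 (SD, n = 3), by 1.03 ± 0.25 (SE, adjusted p = 0.0328), or 2.04-fold, on its only probe. This call depended on single arrays. Leaving out replicate 1 or 2 of the wild type or replicate 2 of the null tissue ended it (adjusted p = 0.115, 0.150 and 0.121). It was also lost without a detection filter (adjusted p = 0.227) and with an offset of 16 in place of the authors' values (adjusted p = 0.0554).

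Map1lc3b, the LC3 form most used as an autophagosome marker, read 10.13, 9.90 and 9.63 in wild type and 10.24, 10.30 and 10.35 in null tissue. Every null value was above every wild type value, but the difference of 0.41 ± 0.15 (SE, adjusted p = 0.134) did not pass. With arrays scaled by their medians it did (adjusted p = 0.0475). Gabarap, Gabarapl2 and Map1lc3a differed by -0.16, -0.16 and -0.19 (adjusted p = 0.601, 0.533 and 0.416). Relative to these 3 genes on the same array, Gabarapl1 was higher in null tissue by 1.18 ± 0.31, 1.19 ± 0.37 and 1.21 ± 0.36 log2 (SE), with no overlap of the genotypes (exact permutation p = 0.1 each, the smallest possible, and 0.125 adjusted over the 5 pairs). Relative to Map1lc3b it was higher by 0.62 ± 0.48, with overlap (exact permutation p = 0.4). These pairs reuse the Gabarapl1 values above and are no separate support for its rise. Gabarapl2 was dim, at 6.12 to 6.51 over the arrays.

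Of the cargo receptors, Sqstm1 rose and Nbr1 did not pass. Sqstm1 encodes p62, which binds ubiquitin-tagged cargo and LC3, is itself degraded by autophagy as a protein, and is also a transcriptional target of the antioxidant factor NRF2. Its values were 10.99, 11.32 and 10.80 in wild type and 11.74, 11.99 and 12.01 in null tissue, on its only probe. The lowest null array stood above the highest wild type array. The mean rose from 11.04 ± 0.26 to 11.91 ± 0.15 (SD, n = 3 each), by 0.87 ± 0.16 (SE, adjusted p = 0.00843), or 1.83-fold. Among the 14 alternatives its call was lost only without a detection filter (adjusted p = 0.0669). Nbr1, a receptor with a similar domain plan, differed by -0.16 (adjusted p = 0.569), and its other probe by -0.23. Gabarapl1 and Sqstm1 rose on the arrays on which the macrophage marker sum was also higher, given above, and the part of macrophages in these rises was not tested.

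None of the 4 tested genes of the initiation kinase complex passed in limma, and 0 had an unadjusted p under 0.05 on the brightest probe. Ulk1, the kinase that starts autophagy when nutrients are short, differed by 0.31 ± 0.16 (SE, adjusted p = 0.294) on its brightest probe. Its other probe read 8.71, 8.88 and 8.96 in wild type and 9.18, 9.40 and 9.18 in null tissue, higher on every null array without passing (0.41 ± 0.13 SE, adjusted p = 0.0934). Ulk2, the related kinase, differed by 0.05, and the scaffold proteins Atg13 and Atg101 by 0.06 and 0.21. All 4 were above 0 by their brightest probe, while the other probe of Ulk2 differed by -0.10.

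The lipid kinase complex, which makes the phosphoinositide that marks the growing membrane, had 5 tested genes and 0 passed in limma, with 1 at an unadjusted p under 0.05. Becn1, its regulatory scaffold, read 8.29, 8.40 and 7.88 in wild type and 7.47, 7.75 and 7.87 in null tissue. Its null values were all lower, with null replicate 3 next to wild type replicate 3 (-0.50 ± 0.17 SE, adjusted p = 0.114), and its other tested probe differed by -0.16. Becn1 passed as lower with array weights, and without wild type replicate 3. Uvrag, its partner in the later endosomal complex, read 7.45, 7.64 and 7.72 in wild type and 7.77, 7.84 and 8.00 in null tissue (0.26 ± 0.13 SE, adjusted p = 0.279), but its other tested probe differed by -0.22. The catalytic subunit Pik3c3 differed by -0.05, the membrane-anchoring subunit Pik3r4 by 0.18 and the regulator Ambra1 by -0.05. Pik3r4 was detected on 1 wild type and 3 null arrays.

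Of the conjugation enzymes, which process LC3 and GABARAP proteins and attach them to lipid, 10 were tested and 0 passed in limma, with 1 at an unadjusted p under 0.05. Atg3, the enzyme that hands LC3 to the lipid, read 9.25, 8.90 and 9.22 in wild type and 8.64, 8.78 and 8.64 in null tissue. All its null values were lower (-0.43 ± 0.14 SE, adjusted p = 0.0877). Atg12, the ubiquitin-like partner of Atg5, read 10.34, 10.03 and 9.81 in wild type and 10.33, 10.37 and 10.44 in null tissue (0.32 ± 0.15 SE, adjusted p = 0.258), and its groups overlapped. Atg16l2, a relative of the scaffold Atg16l1, read 6.94, 7.16 and 6.86 in wild type and 6.68, 6.79 and 6.68 in null tissue (-0.27 ± 0.13 SE, adjusted p = 0.264). Its null values all lay lower, as did those of the LC3 protease Atg4d, at 6.56, 6.52 and 7.01 in wild type and 6.25, 6.33 and 6.51 in null tissue (-0.33 ± 0.16 SE, adjusted p = 0.262). The other enzymes did not pass either, with Atg7, the activating enzyme, at 0.29, Atg4b at 0.18, Atg4c at 0.12, Atg16l1 at 0.12, Atg5 at -0.07 and Atg10 at -0.18.

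Mitophagy was represented by Bnip3l and Fundc1, receptors of the outer mitochondrial membrane, and neither passed or had an unadjusted p under 0.05. Bnip3l read 10.75, 10.72 and 10.32 in wild type and 10.47, 10.74 and 10.56 in null tissue, and the groups overlapped (-0.01 ± 0.15 SE, adjusted p = 0.990). Fundc1 differed by -0.12 on its brightest probe and by -0.13 on another. The median pooled SD between arrays of a genotype was 0.169 log2 over the 34 members, and ranged from 0.0822 to 0.424. Of 15 members with several tested probes, 10 had all probes on the same side of 0 and 5 had probes on both sides. None of the members with several tested probes passed on any of them.

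Other autophagy genes, given as a list beyond the 40, mostly did not pass. Of 45, 41 were tested, 3 rose (7.32%, against 6.36% of all genes) and 0 fell, and the median difference was 0.04 log2. Stbd1, a glycogen-binding protein that can bind Gabarapl1, rose from 7.73, 7.50 and 8.39 to 8.86, 9.24 and 9.27 (1.25 ± 0.22 SE, adjusted p = 0.00759). Trp53inp1, a stress-induced protein that binds LC3 family members, rose from 7.69, 7.84 and 7.60 to 8.51, 8.40 and 8.86 (0.88 ± 0.15 SE, adjusted p = 0.00633). Wdr45, a partner of Atg2 proteins, rose from 9.48, 9.52 and 9.46 to 9.91, 9.98 and 10.05 (0.49 ± 0.12 SE, adjusted p = 0.0282). All null arrays lay above for 8 of the 41 tested genes, these 3 included (19.5%, against 15.6% of all tested genes). They lay below for 3 others (7.32%, against 13.8%).

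Genes around mTORC1, the kinase complex that restrains autophagy when nutrients are plentiful, showed 2 rises and 1 fall among 17 tested of 21 (11.8% and 5.88%, against 6.36% and 2.91% of all genes), with a median of -0.01 log2. Ddit4, an inhibitor of mTORC1, read 7.31, 7.52 and 7.88 in wild type and 8.43, 8.74 and 8.74 in null tissue, a rise of 1.07 ± 0.17 (SE, adjusted p = 0.00430). Rragd, a GTPase that brings mTORC1 to the lysosome, rose by 0.71 ± 0.13 (SE, adjusted p = 0.00941), from 6.22, 6.25 and 5.98 to 6.98, 6.84 and 6.76. Rragd was detected on 2 wild type and 3 null arrays. Its wild type values lay near the lowest signal among detected probes, so the size of its rise is uncertain. Lamtor2, a subunit of the lysosomal anchor of these GTPases, fell from 10.53, 10.84 and 11.12 to 10.10, 10.26 and 10.06 (-0.69 ± 0.16 SE, adjusted p = 0.0291).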

How the data were processed

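Brown adipose tissue RNA was measured on 3 Illumina bead arrays of wild type and 3 of Cd36 null mice. The authors deposited a table of normalised log2 values and, per the file headers, a scanner table with an intensity on a linear scale and a detection p-value per probe and array. Per the submitters' processing notes limma was used, and no source used here gives the other steps. The deposited log2 values differed by at most 0.024 from neqc with an offset of 50, which settles their scale and direction, and column medians lay between 5.92 and 5.93.

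Of 45267 probes, 34875 had 1 symbol in the platform annotation, 18 had several and 10374 were not listed, and 10 symbols were updated from RefSeq (GRCm38.p6). The 17912 probes detected (p under 0.05) on at least 3 of 6 arrays were fitted on the authors' log2 values with lmFit and eBayes in limma 3.58.1 under R 4.3.3, without a replicate block. P-values were adjusted over all of them by Benjamini-Hochberg with a threshold of 0.05. The fit was checked on simulated data. Described in full are Atg9b, Atg9a, every member past the threshold and the 12 members of smallest p, and of the other lists up to 6 past it. Gene neighbours are the 3 nearest on each side of Atg9b. Members and lists were chosen with earlier results of these data known. The number of arrays limits the precision. Other normalisations, filters, weights, probe rules and left-out arrays were tried.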

Additional observations from a re-analysis of the deposited data

How the results depend on the processing

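Atg9b was lower past the threshold in all 14 alternatives, Sqstm1 higher past it in 13 and Gabarapl1 in 9, and none of the 3 changed direction. Of the 34 tested members, 23 kept the sign of their difference in the main analysis and all 14 alternatives, and 11 did not. The number of members higher was 2, against 1 with an offset of 16 (Sqstm1) and 0 without a detection filter, and 1 to 2 when 1 array was left out. The number lower was 1, against 3 with array weights (Atg2b, Atg9b and Becn1), and 1 to 2 when 1 array was left out. Of all tested probes, 1470 changed, 849 without a filter, 2626 with array weights, and 670 to 1341 when 1 array was left out. They fell to 856, 670 and 852 without wild type replicate 1, wild type replicate 2 and null replicate 2. Rises made up 65.3% of changed probes, and 85.9% when arrays were scaled by their medians, which moved the median difference of all tested probes from -0.04 to 0.08 log2 and that of the members from 6.74e-04 to 0.14. The cause of these shifts was not tested. With the replicate number as a block, 1326 probes changed, with 2 members higher and 1 lower. The labels share only a number. Deviations of same-numbered arrays correlated at r = 0.122, -0.0217 and 0.0512, and those of differently numbered arrays at -0.116 to 0.0984. These values do not settle whether arrays were paired. Signals near background limit what dim probes can show.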
